A study of Homo sapiens with 7 samples.

Results

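The genes described here encode sugar-binding proteins of the monocyte lineage: FCN1, SIGLEC1, CD209, CLEC10A, CLEC12A, CD33, LGALS1, LGALS3 and LGALS9. They were chosen by name, with earlier results of these data known. All 9 were found by symbol among the 11408 genes analysed, and each was measured in all 7 libraries. The libraries hold poly(A) RNA of MOLM13, an established human acute myeloid leukemia cell line, collected 6 days after cells were transduced with guide RNAs. In 3 control libraries the guide was sgRosa, described by the labels as non-targeting. The other 4 libraries carried a guide against ZFP36L2, with 2 libraries for each of 2 guides, called guide 3 and guide 5 after the deposited columns. The labels name no further treatment, and they do not say whether the replicates were separate cultures or whether the cells were a clone or a pool. P-values therefore measure the spread between these libraries, which may be technical.

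Lectins are proteins that bind sugars. Ficolins are secreted and start the lectin branch of complement, C-type lectin receptors such as CD209 and CLEC10A take up glycosylated ligands at the surface of macrophages and dendritic cells, and siglecs bind sialic acid and often carry inhibitory motifs in their tails. Galectins bind galactose-containing glycans, lack a signal peptide and work both inside and outside the cell. CD33 and CLEC12A are known as surface antigens of myeloid leukemia cells. ZFP36L2 belongs to a family of RNA-binding proteins that bind AU-rich elements in 3′ UTRs and promote decay of the bound mRNA.

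Because that family binds the heptamer TATTTAT, the letters around it are shown for the genes that hold it. In GENCODE 29, 2 of the 9 genes have it in the 3′ UTR of the transcript with the longest coding sequence. The sites below are on the minus strand of GRCh38, read 5′ to 3′ along the mRNA, with the heptamer in capitals. FCN1 holds it at chr9:134908193-134908219 in 1 of its 2 coding transcripts that have a 3′ UTR, and CLEC10A at chr17:7074630-7074656 in 2 of 5.
FCN1: gggagcaaggTATTTATcaaaaagtgc
CLEC10A: tctttttcacTATTTATtggccttgcc
The heptamer occurs in 31.1% of the 10469 genes with an annotated 3′ UTR. It occurs in 57.7% of UTRs within 25% of the length of that of FCN1, which has 3280 bases, and in 15.0% of UTRs close in length to that of CLEC10A, which has 517. The other 7 genes have no TATTTAT in these UTRs, and 5 of the 9 have no ATTTA either. A match describes the letters and is no evidence of binding. The length behind the FCN1 FPKM was 8378 bases, against a GENCODE 29 span of 12074. Whether the FCN1 values cover the UTR that holds this site is therefore not known.

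Promoter sequence was at hand for 6 of the 9 genes in the RefSeq table for GRCh38.p14: FCN1, CD209, CLEC12A, CD33, LGALS3 and LGALS9. SIGLEC1, CLEC10A and LGALS1 were not among them. The 120 bases before the RefSeq start site are shown for 3 genes whose levels were higher in every guide library and for CD33, whose levels overlapped between the groups. Capitals mark AGGAAG, the core letters bound by ETS-family factors, or its reverse complement CTTCCT. These letters were chosen after the sequences had been seen. The windows are chr9:134917913-134918032 (minus strand), chr19:7747535-7747654 (minus), chr12:9971289-9971408 (plus) and chr19:51224960-51225079 (plus), in the order below. RefSeq start sites differ from the GENCODE 29 gene ends given further on: the CLEC12A window lies inside that gene's GENCODE span, and the windows of FCN1, CD209 and CD33 overlap the 5′ ends of theirs.
FCN1: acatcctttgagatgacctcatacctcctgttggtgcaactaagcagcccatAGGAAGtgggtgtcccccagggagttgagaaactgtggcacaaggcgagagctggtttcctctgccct
CD209: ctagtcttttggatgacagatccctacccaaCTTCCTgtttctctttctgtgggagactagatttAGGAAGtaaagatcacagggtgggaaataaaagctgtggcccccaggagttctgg
CLEC12A: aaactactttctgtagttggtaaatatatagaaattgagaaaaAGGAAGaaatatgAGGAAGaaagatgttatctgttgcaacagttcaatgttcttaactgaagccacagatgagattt
CD33: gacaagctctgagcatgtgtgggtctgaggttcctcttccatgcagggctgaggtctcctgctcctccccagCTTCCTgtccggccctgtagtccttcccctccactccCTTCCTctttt
Searched on both strands, the core occurs once in the FCN1 window and at 2 places each in those of CD209, CLEC12A and CD33. Of the windows not shown, that of LGALS9 holds 1 match. That of LGALS3, which was also higher in every guide library, holds 0. Of 35116 windows of this length in the table, 15.5% hold the core. CD33, whose levels overlapped between the groups, holds as many matches as CD209 and CLEC12A.

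Recovered reads per library came to between 16907955 and 25164359 for the controls and between 28087405 and 38806678 for the guides. The targeted gene ZFP36L2 checks the labels. Its FPKM were 80.2, 79.3 and 73.9 in the controls, 269 and 322 with guide 3, and 174 and 164 with guide 5. The RNA was higher in all 4 libraries labelled with a guide against it (log2 change 1.51 ± 0.16 SE, limma adjusted p = 8.2e-05), so its level shows no loss of RNA, and each group below stands for the libraries as labelled. Control replicate 2 stood apart from the other controls. Its mean Pearson correlation with them over genes was 0.947 against 0.967 and 0.961, and 3 mitochondrial pseudogenes took 0.160% of its reads against 0.0463% to 0.0828% in the other 6 libraries. Results that rest on it are given with and without it.

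Values are FPKM as deposited, which the authors scaled by the whole span of each gene, introns included. They compare libraries for 1 gene and do not rank genes. Log2 changes are of FPKM + 0.5 and are given ± SE from limma with Benjamini-Hochberg adjustment over 6783 tested genes. This scale understates the change of a gene near 0, so reads recovered from the FPKM were also tested with limma voom and no filter on low values. Of the 9 genes, 8 passed the filter of FPKM at or above 1 in at least 2 libraries. FCN1, SIGLEC1, CD209, CLEC10A and LGALS3 passed it through guide libraries alone.

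FCN1, SIGLEC1, CD209, CLEC10A, CLEC12A and LGALS3 were higher in each of the 4 guide libraries than in each of the 3 controls. CD33, LGALS1 and LGALS9, which already had high levels in control cells, overlapped between the groups. That makes 6 of 9 without overlap, where 19.8% of all 11408 genes had each guide library above each control. In the comparison of both guides with control, 5 of 8 tested members rose and 0 fell. Over all tested genes 22.5% rose and 19.7% fell. Since those 5 are the members that passed the filter through the guide libraries, the count is a description. The unfiltered voom test of recovered reads called 7 of all 9 members higher, against 22.0% of 11398 genes higher and 26.4% lower. As the 9 genes were chosen with earlier results of these data known, each of these counts is a description. RNA of a bulk culture cannot tell more cells of a type from more RNA per cell.

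**Figure D1:**
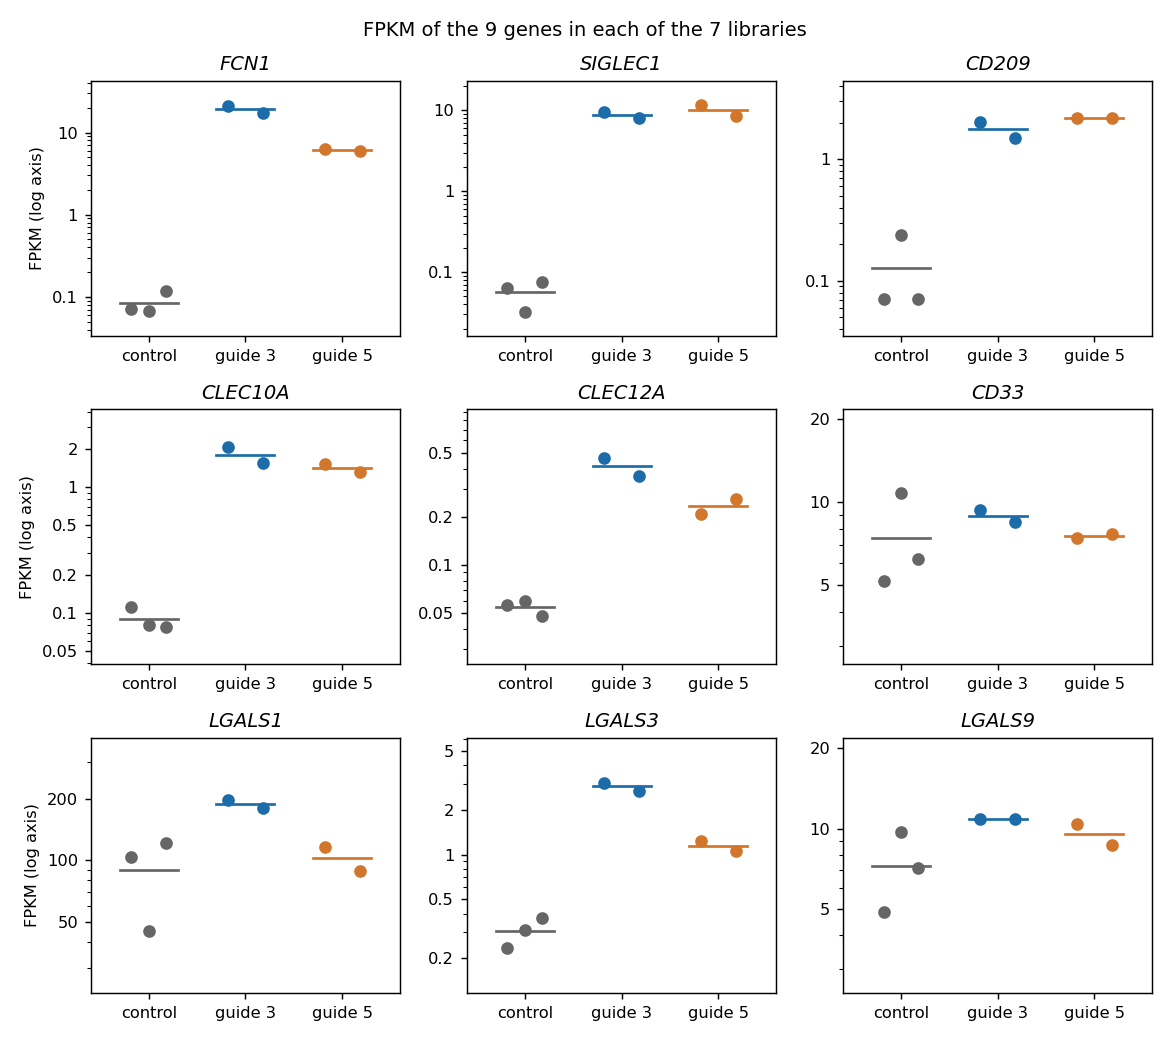
FPKM (log axis) of each gene in the 3 control libraries, the 2 libraries with guide 3 and the 2 with guide 5; points are libraries and bars are group means. For 6 genes every guide library lies above every control, and for CD33, LGALS1 and LGALS9 the groups overlap.

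FCN1 encodes ficolin-1, a secreted pattern recognition protein of monocytes and neutrophils (chr9:134905890-134917963). Its FPKM were 0.0709, 0.0670 and 0.117 in the controls, 21.1 and 17.1 with guide 3, and 6.31 and 5.96 with guide 5. The control values rest on 11, 12 and 24 reads, the guide values on 1458 to 5809. FCN1 was thus near the floor in control cells, highest with guide 3 and intermediate with guide 5, with no overlap among the 3 groups. The ratio of mean FPKM to control was 225 for guide 3 and 72.2 for guide 5. The log2 change was 4.28 ± 0.14 for both guides (adjusted p = 6.4e-08), 5.06 ± 0.16 for guide 3 and 3.50 ± 0.16 for guide 5. Voom on the recovered reads gave 6.996 ± 0.33 for both guides. The difference between the guides passed its own test, at -1.56 ± 0.18 for guide 5 minus guide 3 (adjusted p = 0.0021).

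SIGLEC1, also known as sialoadhesin or CD169, is a sialic acid receptor of macrophages with a short tail that lacks inhibitory motifs (chr20:3686970-3707128). Its FPKM were 0.0643, 0.0325 and 0.0751 in the controls, 9.64 and 8.08 with guide 3, and 11.5 and 8.52 with guide 5. The guide libraries hold 5014 to 8696 of its reads and the controls 14 to 37. Every guide library lay far above every control, and the libraries of guide 3 and guide 5 overlapped. Mean FPKM were 9.45 ± 1.55 (SD, n = 4, over both guides) against 0.0573 ± 0.0222 (SD, n = 3), a ratio of 165 that rests on few control reads. The log2 change was 4.15 ± 0.15 (adjusted p = 6.7e-08), and 7.45 ± 0.38 by voom. Unlike FCN1, SIGLEC1 showed no difference between guides that passed the test (guide 5 minus guide 3 0.16, 95% interval -0.27 to 0.59, adjusted p = 0.76).

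CD209, or DC-SIGN, is a C-type lectin that binds mannose and fucose on pathogens and on ICAM adhesion molecules (chr19:7739994-7747564). Its FPKM were 0.0712, 0.240 and 0.0702 in the controls, 2.04 and 1.51 with guide 3, and 2.21 and 2.19 with guide 5. The highest control value belongs to control replicate 2, the library that stood apart, yet it lies below every guide library. The log2 change was 1.99 ± 0.14 (adjusted p = 3.2e-06), and 4.13 ± 0.37 by voom. Without control replicate 2 it was 2.11. The guides differed by 0.26 (95% interval -0.14 to 0.66, adjusted p = 0.58). Of its exonic 50-base stretches, 2.99% occur in another gene, mostly its paralog CLEC4M, so a small share of its reads is uncertain.

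CLEC10A, the macrophage galactose-type lectin that binds terminal GalNAc (chr17:7074537-7080307), was read 10 to 12 times in each control library and 223 to 393 times with the guides. Its FPKM were 0.112, 0.0810 and 0.0780 in the controls, 2.08 and 1.57 with guide 3, and 1.53 and 1.32 with guide 5. All guide libraries were above all controls. The log2 change was 1.84 ± 0.11 (adjusted p = 1.4e-06), and 4.14 ± 0.35 by voom. The guides differed by -0.26 (95% interval -0.59 to 0.07, adjusted p = 0.51).

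CLEC12A encodes an inhibitory C-type lectin receptor of myeloid cells and leukemic stem cells (chr12:9951316-9995694). Its FPKM were 0.0560, 0.0600 and 0.0480 in the controls, 0.467 and 0.360 with guide 3, and 0.207 and 0.258 with guide 5. It missed the filter because its span of 44379 bases dilutes the FPKM, although 334 to 680 reads fell on it in the guide libraries and 46 to 57 in the controls. The groups did not overlap, and guide 3 libraries lay above guide 5 libraries. On recovered reads its voom log2 change was 2.495 ± 0.25 (adjusted p = 7.3e-05), with 2.88 for guide 3 and 2.12 for guide 5. The difference between guides was -0.76 ± 0.22, with an unadjusted p of 0.0064 and an adjusted p of 0.16. The authors' deposited table gave CLEC12A log2 fold changes of 2.92 with guide 3 and 2.09 with guide 5, with false discovery rates of 5.0e-06 and 1.2e-04. CLEC12A-AS1 and CLEC1B overlap it on the other strand, and whether counting used strand is not given in the sources used here, so reads of these genes cannot be told apart.

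CD33, or SIGLEC3, is an inhibitory siglec found on most myeloid leukemia cells (chr19:51225064-51243860). Its FPKM were 5.15, 10.8 and 6.20 in the controls, 9.36 and 8.47 with guide 3, and 7.41 and 7.63 with guide 5. The highest value of all belongs to control replicate 2, and the guide libraries lie between it and the other controls. The log2 change of 0.20 ± 0.22 did not pass the test (95% interval -0.29 to 0.70, adjusted p = 0.47). It depended on single controls: without control replicate 2 it was 0.50 and called (adjusted p = 0.012), and without control replicate 1 it was -0.01. No difference between the guides passed the test (-0.23, 95% interval -0.88 to 0.42, adjusted p = 0.77).

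LGALS3 encodes galectin-3, the galectin with a collagen-like repeat that is abundant in macrophages (chr14:55124110-55145413). Its FPKM were 0.233, 0.312 and 0.371 in the controls, 3.05 and 2.70 with guide 3, and 1.23 and 1.05 with guide 5. The 3 groups did not overlap, in the order control, guide 5, guide 3, which is also the order of FCN1 and CLEC12A. The mean ratio to control was 9.42 with guide 3 and 3.74 with guide 5. The log2 change was 1.55 ± 0.12 (adjusted p = 6.0e-06), and 2.58 ± 0.20 by voom. LGALS3 was lower with guide 5, at -1.04 ± 0.15 for guide 5 minus guide 3 (adjusted p = 0.011). That call was lost when any 1 of the 4 guide libraries was left out, with a change of -1.12 to -0.96 and adjusted p of 0.055 to 0.20.

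LGALS1 encodes galectin-1, a small dimeric galectin known for effects on T cell survival (chr22:37675608-37679806). Its FPKM were 104, 45.2 and 121 in the controls, 197 and 179 with guide 3, and 116 and 88.5 with guide 5. The lowest value belongs to control replicate 2. The libraries of guide 3 lay above all others, and those of guide 5 lay within the range of the controls. The log2 change of 0.73 ± 0.31 for both guides did not pass the test (95% interval 0.05 to 1.41, adjusted p = 0.077). Without control replicate 2 it was 0.30 (adjusted p = 0.15), and without control replicate 3 it was 1.003 and called (adjusted p = 0.025). For guide 3 alone the log2 change of LGALS1 was 1.18 ± 0.37 and passed the test (adjusted p = 0.029). With a correction for transcript GC content and length that value was 0.39 (adjusted p = 0.37), and 6 of 18 alternatives lost the call. For guide 5 the change was 0.29 (adjusted p = 0.59), and the difference of -0.89 between the guides did not pass the test (95% interval -1.78 to 0.01, adjusted p = 0.44). Without control replicate 2 the same difference was called (adjusted p = 0.040).

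LGALS9 encodes galectin-9, a tandem-repeat galectin that binds the checkpoint receptor HAVCR2 (chr17:27629798-27649560). Its FPKM were 4.88, 9.72 and 7.12 in the controls, 10.9 and 10.9 with guide 3, and 10.4 and 8.73 with guide 5. The groups overlapped only through control replicate 2, which exceeded 1 library of guide 5. The log2 change of 0.52 ± 0.21 did not pass the test (95% interval 0.05 to 0.98, adjusted p = 0.070). Without control replicate 2 it was 0.74 (adjusted p = 0.0066), and unfiltered voom gave 0.55 ± 0.16 (adjusted p = 0.020). Without control replicate 1 it was 0.28 (adjusted p = 0.25), with the GC correction 0.30 (adjusted p = 0.16), and 4 of 18 alternatives passed the test. Of its exonic 50-base stretches, 17.9% also occur in LGALS9B, LGALS9C, LGALS9DP or an overlapping readthrough gene, so its count is uncertain.

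By guide, 6 of 8 tested members rose with guide 3 (all tested genes 23.5%) and 5 of 8 with guide 5 (all tested genes 12.4%). The 5 called with each guide had passed the filter through guide libraries alone, so these counts are a description. LGALS1 was the member called with guide 3 and not with guide 5. The 2 comparisons share their controls. In the direct comparison, which uses no control for its difference, 2 members were lower with guide 5 (all tested genes 0.280% lower and 0.457% higher). These were FCN1 and LGALS3, joined by LGALS1 without control replicate 2. Leaving out control replicate 2 raised the count of members called for both guides from 5 to 7, by adding CD33 and LGALS9, while the share over all tested genes went from 22.5% to 27.1%. FCN1, SIGLEC1, CD209, CLEC10A and LGALS3 were called in all of their 17 or 18 alternatives in each comparison with control. Among all called genes 53.3% rose, a share of 32.6% when FPKM were rescaled to equal sums. That rescaling shifted the median log2 change from -0.00 to -0.17.

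**Figure D2:**
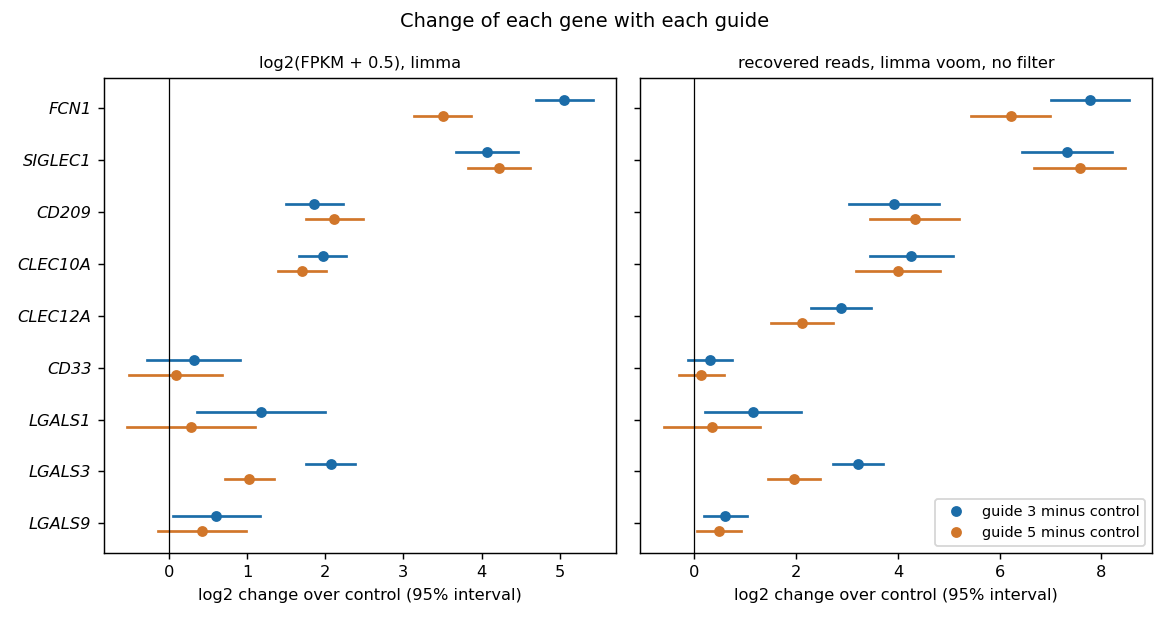
Log2 change over control for each guide, with 95% intervals, on FPKM + 0.5 (left, 8 tested genes) and on recovered reads (right, 9 genes); the x axes differ. The intervals of CD33 span 0 on both scales, and those of the 5 called genes and CLEC12A lie above 0.

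Levels of different genes were compared on a per-length scale, exon RPKM, which is the recovered reads per kilobase of annotated exon and per size of the library. In the control libraries LGALS1 led with a mean of 360 (range 147 to 499). LGALS9 at 24.5 and CD33 at 22.6 followed with overlapping ranges. LGALS3 at 2.73 and CLEC12A at 0.747 came next, each separate from its neighbours, and CLEC10A, CD209, SIGLEC1 and FCN1, at 0.215 to 0.146, overlapped in turn. The last 4 rest on 10 to 39 reads in each control library. With guide 3 the order became LGALS1 (704), LGALS9 (36.9), FCN1 (31.5), CD33 (27.4), LGALS3 (25.01) and SIGLEC1 (22.2), where FCN1, CD33, LGALS3 and SIGLEC1 overlapped neighbour by neighbour. On this scale FCN1 moved from last place to the level of CD33. With guide 5 SIGLEC1 (26.4) overlapped CD33 (24.4), and FCN1 (10.6) overlapped LGALS3 (10.4). CD209, CLEC10A and CLEC12A were the lowest 3 with either guide, at 2.99 to 5.53 with guide 3 and 3.27 to 3.90 with guide 5. Exon RPKM depend on the annotated exons, which may not all be used in these cells. For FCN1 the length behind the FPKM was 8378 bases, against a GENCODE 29 span of 12074. Its reads may therefore come from fewer bases than the annotated exons. The exon RPKM of FCN1 may then be too low, and its place in the order is uncertain in every group.

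**Figure D3:**
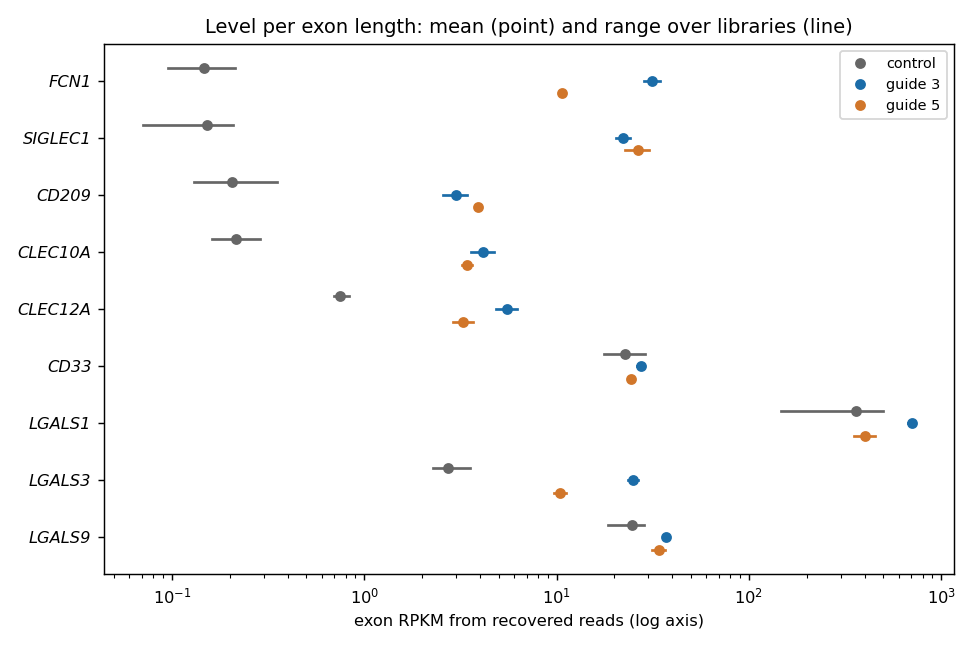
Exon RPKM (log axis) for each gene in each group; points are means and lines the range over libraries. LGALS1 was highest in every group, and FCN1 and SIGLEC1 moved from the lowest control levels to the range of CD33 and LGALS3.

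The relatives of the 9 genes were taken from lists of family members and pathway genes. Their counts stand beside 22.5% risen and 19.7% fallen over all tested genes, or, by unfiltered voom, 22.0% and 26.4%. Among other siglecs, 8 of 14 were analysed and 5 tested, of which 5 rose (median log2 change 1.75, all tested genes -0.00). As 4 of these 5 passed the filter through guide libraries alone, that count and median are a description. Unfiltered voom called 7 of 8 higher. SIGLEC14, an activating siglec that signals through TYROBP, changed by 2.29 ± 0.15 (FPKM 0.871 ± 0.156 to 6.45 ± 2.25, SD, n = 3 and 4). Its first exons are nearly identical with those of SIGLEC5, so its count is uncertain. The inhibitory SIGLEC10 changed by 1.91 and SIGLEC7 by 1.75. SIGLEC9, a close relative of CD33, had FPKM of 0.133, 0.159 and 0.164 in the controls, 2.07 and 2.01 with guide 3, and 1.10 and 0.965 with guide 5. Its groups were ordered as those of FCN1 and LGALS3, and guide 5 minus guide 3 was -0.73 ± 0.13 (adjusted p = 0.036).

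Among other C-type lectins, 15 of 56 were analysed and 10 tested, of which 6 rose and 2 fell (median 0.90), and 3 had passed the filter through guide libraries alone. Voom without a filter called 9 of 15 higher and 2 lower. OLR1, a scavenger receptor for oxidized LDL, rose from 0.103 ± 0.0549 to 4.14 ± 0.902 FPKM (log2 change 2.93 ± 0.16). THBD, the thrombin receptor thrombomodulin, rose by 2.57 ± 0.15, and CLEC7A, the beta-glucan receptor dectin-1, by 1.64 ± 0.13. By voom CLEC7A came first, with 6.36 for CLEC7A, 5.39 for OLR1 and 2.63 for THBD. CLEC7A had only 3 to 4 reads in each control library. CLEC2D, the ligand of the NK receptor KLRB1, fell by 1.20 ± 0.21 and the endocytic receptor CD302 fell by 1.004 ± 0.25. Their highest values were both in control replicate 2, and 2 of the list still fell without it. With the correction for GC content and length 4 of the list fell, where 25.7% of all tested genes fell. Among other galectins 3 of 14 were analysed. LGALS8, the only one tested, was at 3.45 ± 1.52 FPKM in controls and 3.36 ± 0.431 with the guides (log2 change 0.02, adjusted p = 0.94). LGALS2 missed the filter and was higher by voom (1.55, adjusted p = 0.0031).

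Of 12 ficolin and lectin complement genes C3 alone was analysed. C3, the central complement component, rose by 2.33 ± 0.22, from 1.99 ± 0.799 to 12.2 ± 4.52 FPKM. Of 15 genes that carry siglec and C-type lectin signals, 12 were tested, 7 rose and 0 fell (median 0.83), against 22.5% and 19.7% of all tested genes. Of the 12, 2 had passed the filter through guide libraries alone. Unfiltered voom called 9 of 15 higher and 2 lower. The adaptors FCER1G (2.85 ± 0.25) and TYROBP (2.36 ± 0.19), which carry activating motifs, and the Src-family kinase FGR (2.65 ± 0.15) rose most. The phosphatase PTPN6, which inhibitory siglecs recruit, rose by 1.06, from 26.0 ± 5.95 to 54.0 ± 6.91 FPKM. The kinase SYK was at 3.45 FPKM in either group (log2 change -0.00, adjusted p = 0.99).

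The sugars themselves are made by other genes. Of 27 genes of sialic acid synthesis, transfer and removal, 18 were analysed and 10 tested, with 5 risen and 2 fallen (median 0.36), where 22.5% of all tested genes rose and 19.7% fell. Of the 10, 1 had passed the filter through guide libraries alone. Unfiltered voom called 6 of 18 higher and 4 lower. NEU1, the lysosomal sialidase, rose by 1.08 ± 0.14 and its protective partner CTSA by 0.95 ± 0.18. ST6GALNAC4, a sialyltransferase, rose by 0.89 ± 0.16, a value of 0.23 with the GC correction (adjusted p = 0.044), and guide 5 alone did not pass the test (0.60, adjusted p = 0.056). The phosphatase NANP of sialic acid synthesis fell by 0.64 ± 0.15 and the sialidase NEU3 fell by 0.34 ± 0.12 (adjusted p = 0.043). Of 21 genes that build galectin ligand glycans, 12 were tested, 4 rose and 1 fell (median 0.28), beside the 22.5% risen and 19.7% fallen of all tested genes. Of the 12, 1 had passed the filter through guide libraries alone. Unfiltered voom called 7 of 20 higher and 4 lower. MGAT1, which opens the branching of N-glycans, rose by 1.14 ± 0.17, and the calls of MGAT4B and B4GALT3 (0.74 and 0.58) were lost with the GC correction (0.25 and 0.17). C1GALT1C1, the chaperone of core 1 O-glycan synthesis, fell by 0.47 ± 0.17 with an adjusted p of 0.049, a call also lost with the GC correction (-0.13, adjusted p = 0.25).

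Of 19 galectin binding partners 16 were tested, 5 rose and 1 fell (median 0.19), where 22.5% of all tested genes rose and 19.7% fell. As 4 of the 16, LGALS3BP and ITGAM among them, had passed the filter through guide libraries alone, that count is a description. Unfiltered voom called 7 of 17 higher and 1 lower. Without control replicate 2, 8 rose, where 27.1% of all tested genes did. LGALS3BP, a secreted glycoprotein that binds galectin-3, had FPKM of 0.0365, 0.0211 and 0.0277 in the controls, 1.13 and 0.967 with guide 3, and 2.93 and 2.26 with guide 5. It differed between the guides in the direction opposite to LGALS3, at 0.99 ± 0.15 for guide 5 minus guide 3 (adjusted p = 0.011). ITGAM, the alpha chain of the integrin CR3, rose by 1.71 ± 0.11 and BSG by 0.77 ± 0.19. TFRC, the transferrin receptor, fell by 0.47 ± 0.17 (adjusted p = 0.047). The calls of BSG and TFRC were lost with the GC correction (0.15 and -0.12). The calls of NEU3, MGAT4B, B4GALT3, C1GALT1C1, BSG and TFRC were each lost on leaving out at least 2 of the libraries in turn. NEU3 kept its call with the GC correction (-0.29, limma adjusted p = 0.023).

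**Figure D4:**
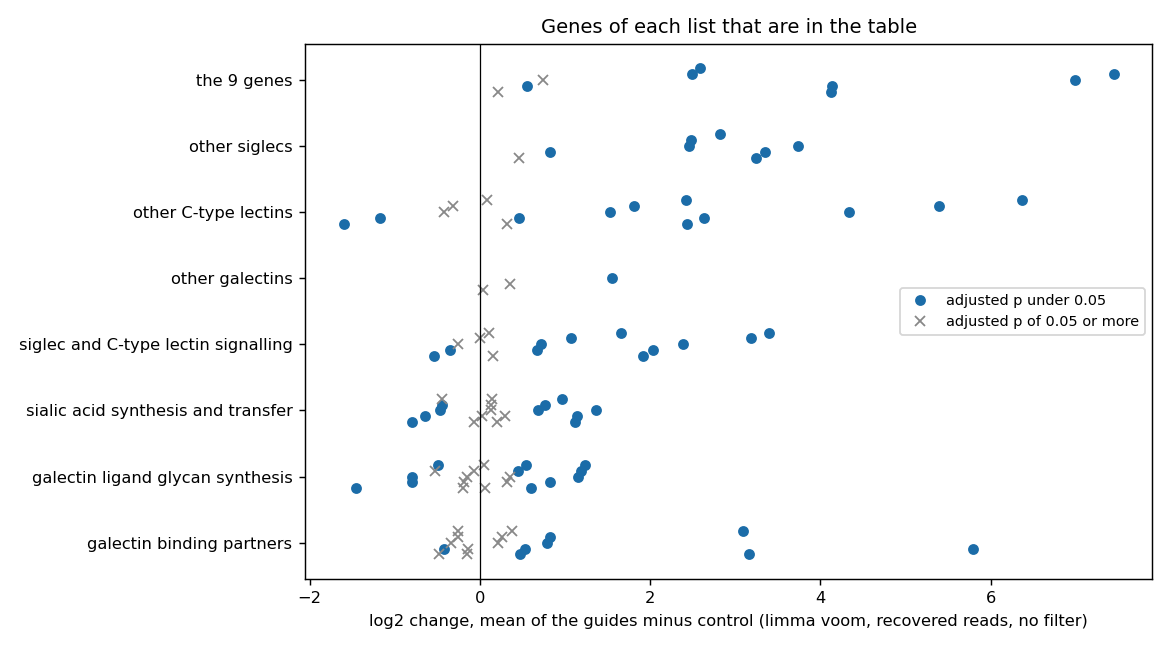
Log2 change of both guides over control from voom on recovered reads with no filter, for each analysed gene of the 9 and of 7 related lists; filled points passed adjusted p under 0.05 and crosses did not. SIGLEC1 and FCN1 lie farthest to the right, while genes of sugar synthesis lie on either side of 0.

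Marker lists were measured beside these genes, and their counts stand beside 22.5% risen and 19.7% fallen over all tested genes. Of 10 monocyte markers 9 were tested and 9 rose. As 4 of these 9 had passed the filter through guide libraries alone, that count is a description. The summed FPKM of the 10 monocyte markers, most of it LYZ, went from 635 to 1158 in the controls to 1750 to 3657 with the guides. Of 10 macrophage markers 7 were analysed, with a summed FPKM of 0.216 to 0.417 in the controls and 10.3 to 15.8 with the guides, led by APOE (0.125 ± 0.0862 to 7.94 ± 1.32). MRC1, CD163 and C1QB were not among the genes analysed. Of the 7, 3 were tested, and all 3 had passed the filter through guide libraries alone, so these values are a description. Among 12 dendritic cell markers 3 were analysed, none of them a defining one such as CD1C or FCER1A: 0 rose and FLT3 fell. Neutrophil markers were analysed for 4 of 10, with CSF3R and ELANE risen. T and NK cell markers were analysed for 3 of 10, with NKG7 risen and CD3D fallen. Of 12 markers of MOLM13 and myeloid leukemia 11 were analysed, with LYZ, SPI1 and CEBPA risen and FLT3 and MPO fallen. The part of these markers in the changes of the 9 genes was not tested. None of 8 B and plasma cell markers and none of 10 erythroid and megakaryocyte markers was among the genes analysed.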

How the data were processed

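RNA-seq of 7 MOLM13 libraries was analysed. Per the labels' protocols, the library kit was directional and reads were single-end. The submitters' processing notes name GRCh38.p7, hg38, limma, edgeR, HTSeq and STAR 2.5.3 without roles. The authors deposited FPKM per library, and for each guide log2 fold changes, p-values with false discovery rates and group means of CPM. Of 11581 genes, 173 without FPKM or symbol were left out. Mean CPM over mean FPKM gave the length behind each FPKM for 11398 genes, within 5% of the GENCODE 29 gene span for 10373 (for FCN1 8378 against 12074 bases), so introns are included. FPKM multiplied by this length came out as whole reads for 100% of values per library (tolerance 0.01), with 1 read worth 0.0261 to 0.0540 CPM. Without molecular identifiers, low counts cover counting error only.

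The model (limma 3.58.1, R 4.3.3) took log2(FPKM + 0.5) with 3 group means and a variance trend, two-sided, threshold 0.05 on adjusted p; 4 residual degrees of freedom were joined by 6.21 prior ones. The procedure was tested on simulated data. Alternatives were pseudocounts 0.1 and 1, other filters (none, or mean FPKM from 5 upward), quantile and equal-sum scaling, a GC and length correction, voom on recovered reads, a replicate block, no variance trend and each library left out. Voom with no filter and a block with crossed guide 5 numbers were added after the data were seen. Same-numbered libraries correlated between -0.57 and 0.44 in their deviations from group means. The 2 libraries of a guide deviate by equal and opposite amounts, so the value between guides is the same for either number. Whether libraries of different groups share a batch cannot be told from these values. The main model used no pairing. Guides 3 and 5 of the columns are not matched to the labels' guide numbers.

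The 9 genes and the lists were chosen with earlier results of these data known. Named besides them are ZFP36L2, up to 3 called genes each way per list, list genes that differed between guides, and the 3 nearest profiles per gene. PTPN6, SYK, LGALS2, LGALS8 and single markers were named after their values were seen. Promoters are from the RefSeq table, UTRs and exons from GENCODE 29. Python 3.11.15, pandas 2.3.3, numpy 2.4.6 and matplotlib 3.10.9 were used.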

Additional observations from a re-analysis of the deposited data

Results flagged for a closer look

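Of the 8 tested genes, 2 responded differently to the 2 guides by a test of the difference itself. FCN1 differed by -1.56 (log2, guide 5 minus guide 3). LGALS3 differed by -1.04. The FCN1 difference was past the threshold in all 18 alternatives (-1.71 to -1.32), that of LGALS3 in 13 of 17. ZFP36L2 RNA was itself at 269 and 322 FPKM with guide 3 and at 174 and 164 with guide 5, a difference that did not pass the test (adjusted p = 0.18). Its part in the differences was not tested. Over the 9 groups of 4 guide libraries examined, no library was set apart from the others by more than the limit for a single far value.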

How the results depend on the processing

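A filter on mean FPKM of at least 5 leaves out CD209, CLEC10A and LGALS3, and the risen members were then 2 for both guides, 3 for guide 3 and 2 for guide 5, with 1 lower with guide 5 than with guide 3. In that direct comparison, leaving out single libraries gave 1 to 3 members lower, 3 without control replicate 2. Same-numbered guide libraries deviated in opposite directions (correlation -0.57, a single value because each guide has 2 libraries). With the replicate block LGALS1 (1.00, adjusted p = 0.00072) and LGALS9 (0.53, adjusted p = 0.037) were called for both guides, and control replicate 3 had no partner. With guide 5 numbers crossed in the replicate block 1 member was lower with guide 5. Directions turned only for values that were not called. Leaving out single libraries gave -0.0054 to 0.496 for CD33 with both guides, -0.12 to 0.381 for CD33 with guide 5, -0.15 to 0.5588 for LGALS1 with guide 5, and -0.0488 to 0.3689 for SIGLEC1 between guides. The GC correction gave -0.0542 for LGALS1 with guide 5. Equal-sum scaling gave 0.0025 for CD33 and 0.0521 for LGALS9 between guides, and quantile scaling 0.0209 for LGALS9. Over results of single genes, leaving out 1 library kept the direction and call of 370, lost the call of 32 and gained that of 7. Other settings kept 593, lost 19 and gained 7. Among the lists, other C-type lectins fell for 2 genes and, with the GC correction, for 4, and 5 galectin partners rose against 8 without control replicate 2. The control levels of FCN1, SIGLEC1, CD209 and CLEC10A rest on 10 to 39 reads, so their ratios to control are imprecise.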

Other observations

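For each tested gene, the 3 profiles over the 7 libraries closest to its own were found by Euclidean distance of centred log2(FPKM + 0.5). FCN1 lay closest to S100A8 (0.74), S100A12 (0.89) and S100A9 (0.98), which encode the calcium-binding alarmins of monocytes and neutrophils. SIGLEC1 lay closest to the chemokine CCL2 (0.61), the lipid carrier APOE (0.72) and the phosphatase ACP5 (0.72). CD209 lay closest to the interferon-induced MX2 (0.24), followed by HIST1H1C (0.25) and CHI3L1 (0.27). CLEC10A lay closest to NLRP12 (0.26), FPR3 (0.28) and SCIMP (0.32), and LGALS3 to DES (0.25), C19orf38 (0.34) and SIGLEC9 (0.35). The nearest profiles to the other 3 genes were UBE2Q1 (0.19), CRTAP (0.19) and PNRC1 (0.19) for CD33, RPP25L (0.34), GNB2 (0.37) and COMMD5 (0.37) for LGALS1, and PRKCD (0.20), ILK (0.20) and CAPNS1 (0.20) for LGALS9. These distances are a description over 7 libraries.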
